A study of Rattus norvegicus with 6 samples.

Results

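The genes that build caveolae were followed in vascular smooth muscle (VSM) cells of young and old rats. They were taken by symbol from the gene counts and comprised the caveolins (Cav1, Cav2, Cav3), the cavins (Cavin1, Cavin2, Cavin3, Cavin4) and the neck proteins Ehd2 and Pacsin2. Of these 9 genes, 8 had a row among the 14475 genes of the table, and Cav3, the caveolin of differentiated muscle, was not analysed here. The cells had been isolated from the soleus feed artery (SFA), the vessel that supplies the soleus muscle, of male Fischer 344 rats aged 4 months (young, n = 3) or 24 months (old, n = 3). They were grown in medium with fetal bovine serum, and poly(A) RNA was sequenced as 1 library per culture, with 3 rats per group and no other treatment. The number of passages is not given in the sources used here.

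Caveolae are flask-shaped pits of the plasma membrane that are abundant in smooth muscle, endothelium and fat cells. Caveolins insert into the inner leaflet and oligomerize, cavins form a coat over the caveolin scaffold, and EHD2 and PACSIN2 act at the neck of the pit, where EHD2 holds it at the cell surface. The pits flatten when the membrane is stretched and gather receptors and ion channels that control the tone of an artery.

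Total counts per library ranged from 44235674 to 59700887. Levels are given as CPM, the counts scaled to a common library size after TMM normalization and not divided by gene length, so levels of different genes are not compared. The labelled cell type was checked against 12 smooth muscle markers, of which 12 were in the table. Their summed level was 11620 to 21870 CPM in young and 3580 to 5755 CPM in old. The identity markers Acta2 and Myh11 were present in each library (at least 1126 CPM for Acta2 and 77.9 CPM for Myh11). The mean of Acta2 was 7646 CPM in young and 1583 CPM in old, and that of Myh11 was 1131 and 134 CPM. Both were lower in each old than in each young library, as were 14.7% of all genes. In the same libraries, 10 of 11 fibroblast markers were in the table, with a summed level of 749.3 to 1328 CPM in young and 1688 to 2714 CPM in old. The ranges of both lists were apart between the age groups, and their part in the results was not tested. RNA from a whole culture cannot tell fewer cells of a type from less RNA per cell.

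In old VSM cells, Cav1 and Cav2 were lower in each old library than in any young library, while the cavins, Ehd2 and Pacsin2 overlapped between the age groups. A gene was called when edgeR's quasi-likelihood test gave an adjusted p under 0.05 with at least 1 in absolute log2 fold change. No caveola gene met both criteria (0 of 8, compared with 0.00691% of all genes), and 2 of 8, Cav1 and Cav2, had an unadjusted p under 0.05 (22.6% of all genes). The DESeq2 Wald test called these 2 genes, both as lower in old (5.56% of all genes were called by DESeq2 and 3.31% as lower in old). With limma-voom, 0 of 8 were called, as were 0 of all 14475 genes. The groups did not overlap for 2 of 8 genes (29.2% of all genes), again Cav1 and Cav2, with old below young (14.7% of all genes). Of the 8 genes, 7 had a log2 fold change below 0, compared with 48% of all genes. The median log2 fold change was -0.61 over the 8 genes and 0.02 over all genes.

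**Figure D1:**
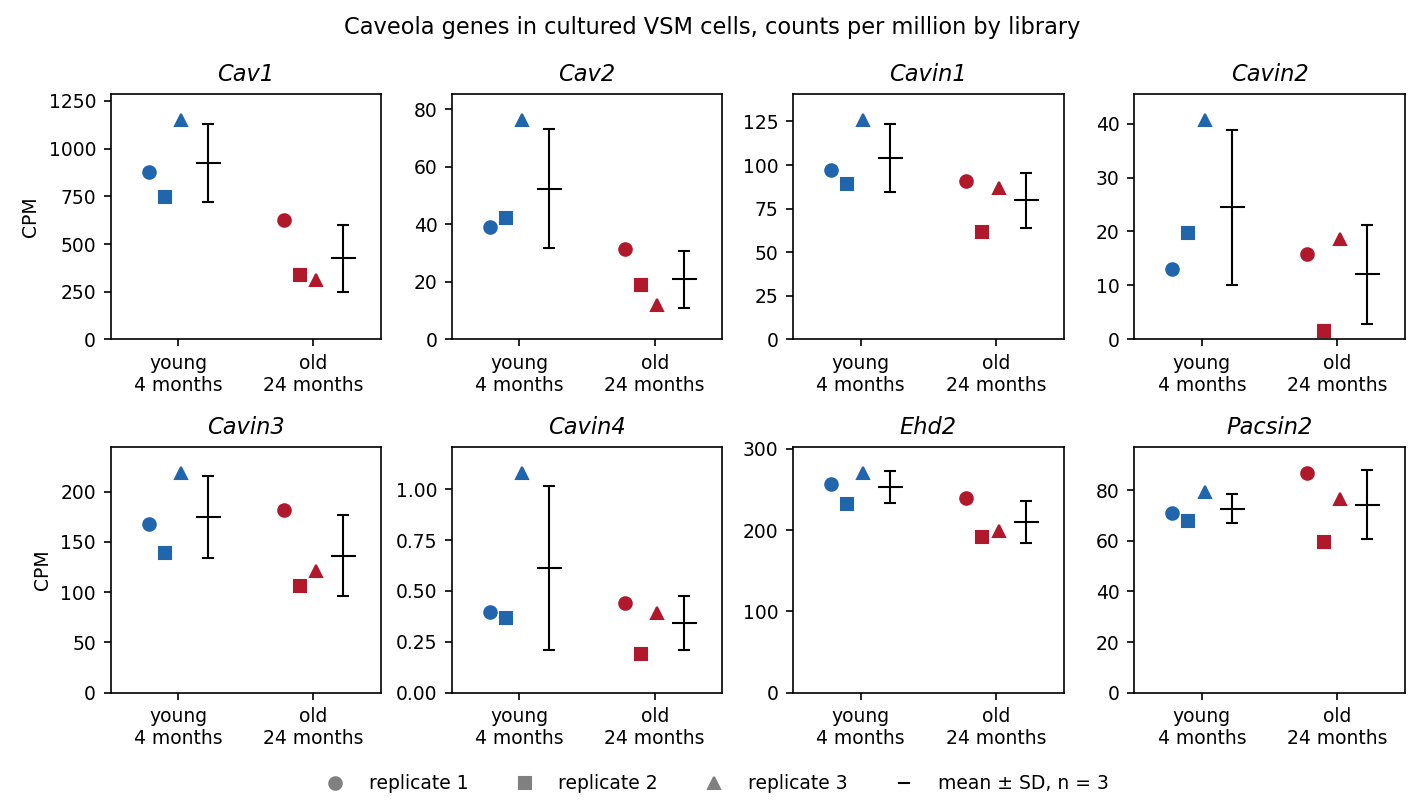
Level of each caveola gene by library, in CPM on linear axes that start at 0. Blue symbols are the 3 young and red symbols the 3 old libraries, with mean ± SD (n = 3) beside them. The old libraries lie below all young libraries for Cav1 and Cav2, and the groups overlap for the other 6 genes.

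Cav1 (ENSRNOG00000056836) encodes the scaffold protein that caveolae require outside striated muscle. It had 876, 747 and 1151 CPM in young replicates 1, 2 and 3 and 624, 337 and 311 CPM in old replicates 1, 2 and 3. Old replicate 1 was the closest to the young libraries, and the other old libraries were the lowest of all. The mean was 925 ± 207 CPM in young and 424 ± 174 CPM in old (SD, n = 3 each). On the log2 scale, the fold change was -1.12 (standard error [SE] 0.32, 95% interval -1.88 to -0.36), a level 54.1% lower in old, with an adjusted p of 0.128 from edgeR and 0.00908 from DESeq2. Without old replicate 1, the log2 fold change was -1.51 and edgeR called the gene (adjusted p = 0.0293), along with 5.06% of all genes. Without any of the other libraries, it was -1.26 to -0.94, with adjusted p of 0.237 to 0.287 from edgeR.

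Cav2 (ENSRNOG00000057713) encodes the caveolin that forms mixed oligomers with caveolin-1 and depends on it to reach the cell surface. Young replicates 1, 2 and 3 had 39.0, 42.1 and 76.3 CPM and old replicates 1, 2 and 3 had 31.5, 18.99 and 12.1 CPM. As for Cav1, old replicate 1 was the highest and old replicate 3 the lowest of the old libraries. The mean went from 52.5 ± 20.8 CPM to 20.9 ± 9.88 CPM (SD, n = 3 each). The log2 fold change was -1.33 (SE 0.41, 95% interval -2.33 to -0.33), with an adjusted p of 0.150 from edgeR and 0.0184 from DESeq2. DESeq2 lost the calls of both caveolins without young replicate 3, without old replicate 2 or without old replicate 3, and lost that of Cav2 without young replicate 2, where it called 3.81% to 4.5% of all genes.

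Cav1 and Cav2 are neighbors on rat chromosome 4. Their promoters are shown because these were the genes whose age groups were apart, and the promoter of Cavin1 is shown for comparison. Each window holds 250 bases before and 50 bases after an annotated start site, from RefSeq on the assembly GRCr8. This is not the assembly that the authors name for counting. Capitals mark matches on either strand to the GC box (GGGCGG), the TATA box (TATAAA), the AP-1 site (TGANTCA), the TEAD site (GGAATG) or the CArG box bound by serum response factor. Cav1 has 2 annotated start sites (chr4:46606288-46606587 and chr4:46607722-46608021, both on the plus strand). The windows of Cav2 (chr4:46582431-46582730, plus strand) and Cavin1 (chr10:86396334-86396633, minus strand) follow.
Cav1, start site 1: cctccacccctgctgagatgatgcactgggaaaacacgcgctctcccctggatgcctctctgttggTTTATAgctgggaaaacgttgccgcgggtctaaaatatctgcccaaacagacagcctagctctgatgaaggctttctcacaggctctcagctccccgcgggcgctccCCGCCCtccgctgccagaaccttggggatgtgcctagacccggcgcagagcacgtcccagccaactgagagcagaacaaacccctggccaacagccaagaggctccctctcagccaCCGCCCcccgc
Cav1, start site 2: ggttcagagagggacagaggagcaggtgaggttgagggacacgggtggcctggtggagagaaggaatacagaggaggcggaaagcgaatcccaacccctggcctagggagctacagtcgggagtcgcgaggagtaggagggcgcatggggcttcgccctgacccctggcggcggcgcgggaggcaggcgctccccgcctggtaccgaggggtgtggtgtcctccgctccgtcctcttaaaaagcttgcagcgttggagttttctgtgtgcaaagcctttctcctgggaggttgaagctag
Cav2: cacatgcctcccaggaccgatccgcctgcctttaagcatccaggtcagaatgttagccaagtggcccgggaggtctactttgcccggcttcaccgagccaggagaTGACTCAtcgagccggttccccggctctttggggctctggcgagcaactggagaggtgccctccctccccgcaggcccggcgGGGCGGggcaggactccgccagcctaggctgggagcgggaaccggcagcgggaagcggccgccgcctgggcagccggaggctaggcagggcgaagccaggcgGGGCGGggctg
Cavin1: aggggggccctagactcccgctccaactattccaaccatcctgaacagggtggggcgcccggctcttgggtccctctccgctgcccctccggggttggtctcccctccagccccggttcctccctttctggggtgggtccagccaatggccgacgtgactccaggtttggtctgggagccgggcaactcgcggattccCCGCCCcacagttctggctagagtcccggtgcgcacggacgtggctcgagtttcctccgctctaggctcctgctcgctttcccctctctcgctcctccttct

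The first Cav1 window and the Cav2 window each held 2 GC boxes, which began at -77 and 39 in Cav1 and at -63 and 39 in Cav2, counted from the start site as 0. A GC box was found in 33.1% of all 33469 promoter windows, and the Cavin1 window held 1 at -52. The AP-1 motif occurred in the Cav2 window at -145 (7.33% of all windows) and the TATA motif in the first Cav1 window on the minus strand at -184 (14.2% of all windows). The second Cav1 window held none of these letters. The 3 genes had a GC content of 61.7% and 63% (Cav1), 70.3% (Cav2) and 66.3% (Cavin1), compared with a median of 51.7% over all windows. Of the other windows of the group, those of Cavin2 and Cav3 held a TEAD motif (14.2% of all windows). The Ehd2 window held a GC box at -73, the Cavin4 window a TATA motif at -70 and the Pacsin2 window none of the motifs. A CArG box, found in 1.64% of all windows, was in none of the 9 windows of the 8 genes with an entry. These matches describe the letters of the windows only.

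Cavin1 (ENSRNOG00000019778) encodes the coat protein that caveolae require besides caveolin-1. It had 97.0, 89.1 and 126 CPM in young and 90.9, 61.8 and 86.9 CPM in old libraries. Old replicate 1 lay within the range of the young libraries. The log2 fold change was -0.38 (SE 0.20, 95% interval -0.85 to 0.09, adjusted p = 0.292 from edgeR). In the RefSeq annotation of GRCr8, Cavin1 overlaps 2 noncoding RNA genes, and reads of the genes cannot be told apart if counting did not use strand.

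Cavin3 (ENSRNOG00000017914), a cavin that binds protein kinase C delta, had 168, 139 and 218 CPM in young cultures and 182, 106 and 122 CPM in old cultures. Its old replicate 1 exceeded young replicates 1 and 2, and the log2 fold change was -0.36 (SE 0.25, 95% interval -0.97 to 0.25, adjusted p = 0.423 from edgeR).

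Cavin2 (ENSRNOG00000025895), a phosphatidylserine-binding cavin that shapes membrane curvature, was the most variable of the group in old VSM cells. Young replicates 1, 2 and 3 had 13.1, 19.6 and 40.7 CPM, and old replicates 1, 2 and 3 had 15.9, 1.58 and 18.6 CPM. Old replicate 2 thus stood apart with 82 counts, against 792 and 997 counts in the other old libraries. The highest old library was 11.8 times the lowest, compared with 3.11 times in young. The log2 fold change was -1.02 (SE 0.84, 95% interval -3.06 to 1.01, adjusted p = 0.488 from edgeR), and it was -0.51 without old replicate 2 and -0.44 without young replicate 3.

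Cavin4 (ENSRNOG00000008027), a cavin found mainly in heart and skeletal muscle, was near the lower end of the table. It had 18, 22 and 53 counts in young and 22, 10 and 21 counts in old libraries, or 0.192 to 1.08 CPM over all libraries. Its log2 fold change of -0.84 (SE 0.57, 95% interval -2.21 to 0.53, adjusted p = 0.405 from edgeR) became -0.16 without young replicate 3. Even numbers made up 68.7% to 71.1% of the values from 1 to 19 in a library, as when a fragment is counted once for each mate. Counts then carry more error than their size implies, which matters most where they are as low as here. Of 24 skeletal muscle markers, 10 were in the table. Their summed level was 181 to 399 CPM in young and 45.0 to 78.6 CPM in old. Acta1, Myh1 and Myh2 made up most of the young sums. By log2 fold change, 8 of the 10 were lower in old and 2 higher, namely Tnnt3 (0.92) and Neb (0.76). The lineage factors Pax7, Myf5, Myod1 and Myog had no row in the table. The part of skeletal muscle cells in the Cavin4 counts was not tested.

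Ehd2 (ENSRNOG00000011346), the ATPase that stabilizes caveolae at the membrane, varied little among replicates. It had 257, 232 and 270 CPM in young cultures and 239, 192 and 199 CPM in old cultures, so that only old replicate 1 overlapped the young range. The log2 fold change was -0.27 (SE 0.12, 95% interval -0.57 to 0.03, adjusted p = 0.251 from edgeR), and a decrease by more than 0.57 on the log2 scale lay outside the interval. Pacsin2 (ENSRNOG00000009756), an F-BAR protein that bends the membrane at the neck, had 71.2, 68.0 and 79.1 CPM in young and 86.8, 59.6 and 76.6 CPM in old libraries. Old replicate 1 lay above the young range, old replicate 2 below it and old replicate 3 within it, with a log2 fold change of 0.03 (SE 0.15, 95% interval -0.34 to 0.40, adjusted p = 0.918 from edgeR).

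**Figure D2:**
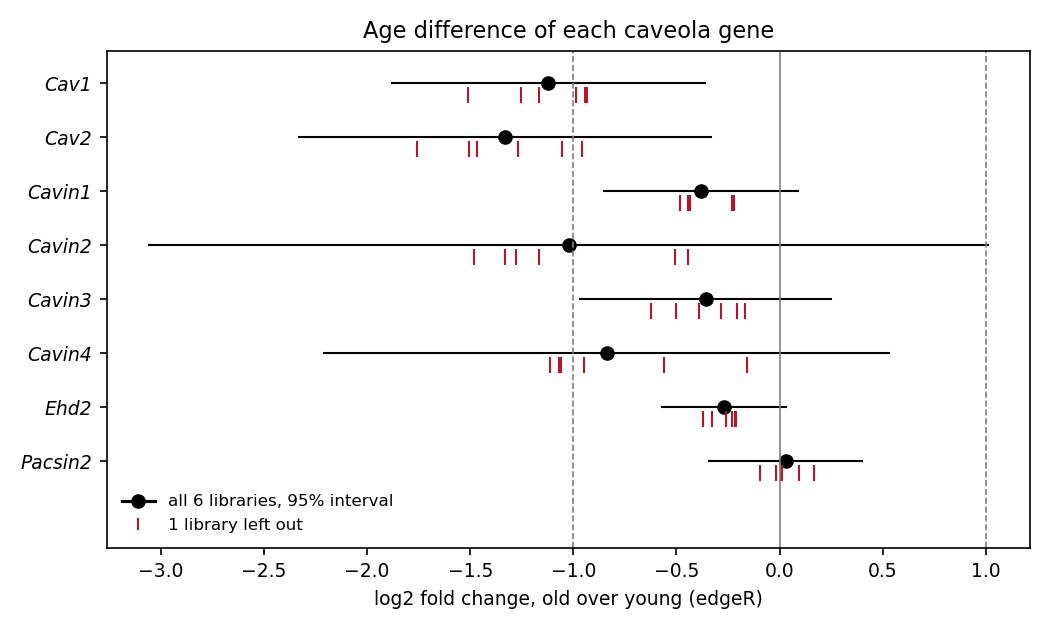
Log2 fold change of old over young for each caveola gene, from edgeR with all 6 libraries (black points, 95% interval) and with 1 library left out in turn (red ticks). Dashed lines mark an absolute log2 fold change of 1, and the intervals of Cav1 and Cav2 are the ones that do not include 0.

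The libraries of an age group mostly ranked alike over these genes. How many of all genes ranked the libraries in this way was not counted, so the order may not be particular to caveola genes. Among the young libraries, replicate 3 was the highest for 8 of 8 genes. The lowest young library was replicate 1 for Cav2 and Cavin2 and replicate 2 for the other 6 genes. Among the old libraries, replicate 1 was the highest for 7 of 8 genes, all but Cavin2. The lowest old library was replicate 3 for Cav1 and Cav2 and replicate 2 for the other 6 genes. In the plot of log2 fold changes, leaving out young replicate 3 moved Cav1, Cav2, the 4 cavins and Ehd2 toward 0. The median over the 8 genes then was -0.22 in place of -0.61.

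Ratios within a library do not depend on the scaling between libraries, and so the stoichiometry of the transcripts was compared as the log2 ratio of counts to Cav1 or Cavin1. Of 10 ratios, 4 did not overlap between the age groups, those of Cavin1, Cavin3, Ehd2 and Pacsin2 to Cav1, all higher in old. Among all other genes of the table, 69.2% had a ratio to Cav1 that was higher in each old than in each young library, so that a higher ratio was not particular to these 4 genes. No ratio to Cav1 was lower in each old library (0 of 7, compared with 0.767% of all other genes). The ratios to Cav1 all rest on the same Cav1 counts. With 3 libraries against 3, the exact permutation test (two-sided, 20 relabelings) cannot give a p under 0.10.

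The log2 ratio of Cavin1 to Cav1 was -3.17, -3.07 and -3.19 in young and -2.78, -2.45 and -1.84 in old libraries. The SD was 0.07 among the young and 0.48 among the old libraries (n = 3 each), and old replicate 3 was the farthest from the young libraries. The difference between the group means was 0.79, a ratio 1.73 times as high in old (exact permutation p = 0.10, Benjamini-Hochberg adjusted p = 0.25 over the 10 ratios). The ratio of Cavin3 to Cav1 was the most even among young cultures, at -2.38, -2.43 and -2.40, and was -1.78, -1.67 and -1.36 in old. It was 1.74 times as high in old, that of Ehd2 to Cav1 was 1.87 times and that of Pacsin2 to Cav1 was 2.28 times as high (exact permutation p = 0.10 and adjusted p = 0.25 for each).

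The ratio of Cav2 to Cav1 overlapped between the age groups, at -4.49, -4.15 and -3.91 in young and -4.31, -4.15 and -4.69 in old (difference -0.20, exact permutation p = 0.40, adjusted p = 0.667). Among the cavins, the ratio of Cavin3 to Cavin1 was 0.74 ± 0.09 in young and 0.75 ± 0.26 in old (SD, n = 3 each, difference 0.01, exact permutation p = 1). The remaining ratios, those of Cavin2 and Cavin4 to Cav1 or Cavin1, overlapped as well and had exact permutation p of at least 0.40. The difference in the ratio of Cavin2 to Cav1 was -0.32 with all libraries and ranged from -1.13 without old replicate 3 to 0.70 without old replicate 2.

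**Figure D3:**
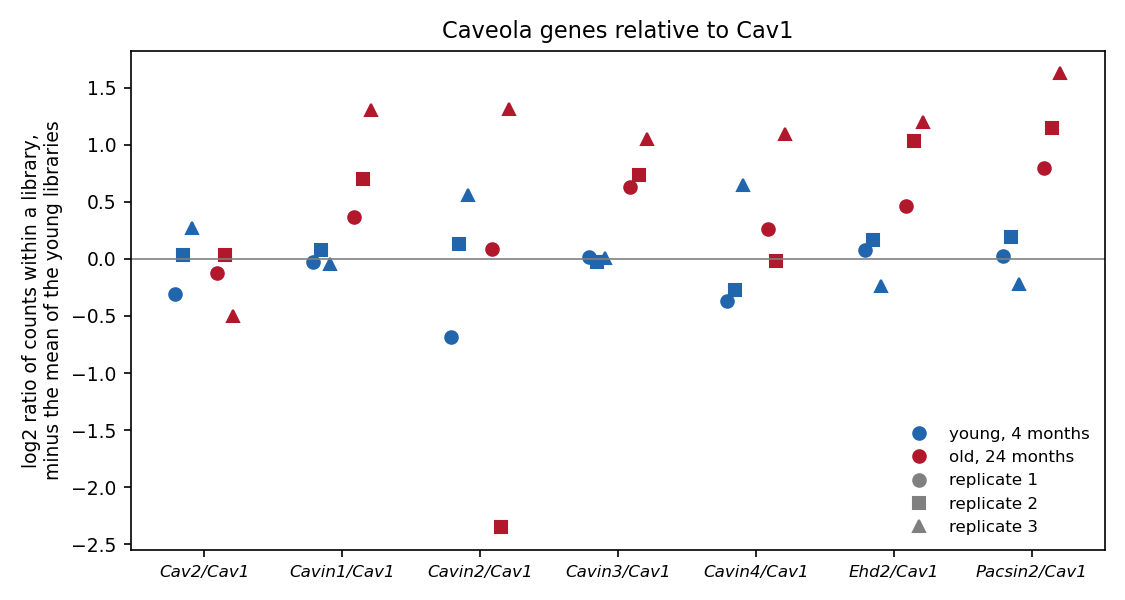
Log2 ratio of the counts of each caveola gene to those of Cav1 in the same library, shown as the difference from the mean of the young libraries. Blue symbols are young and red symbols old libraries. The 3 old libraries lie above the young ones for Cavin1, Cavin3, Ehd2 and Pacsin2, and old replicate 2 is far below for Cavin2.

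Genes that work with caveolae were grouped into 6 lists, of which 44 of 51 genes were in the table. At an unadjusted p under 0.05, 11 of 44 were lower and 7 of 44 higher in old, compared with 11.5% and 11.2% of all genes in each direction. edgeR called 0 of the 44 genes, whereas DESeq2 called 2 as lower (3.31% of all genes) and 4 as higher (2.25% of all genes). The median log2 fold change of the 44 genes was -0.05.

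Among 5 paralogs of Ehd2 and Pacsin2, 2 were lower at an unadjusted p under 0.05 and 0 were higher. Ehd4, an endosomal EHD protein that can take part in caveola function, had 121, 123 and 135 CPM in young and 76.2, 42.0 and 33.2 CPM in old libraries. Its log2 fold change was -1.32 (SE 0.30, adjusted p = 0.0977 from edgeR and 0.00117 from DESeq2), with all old libraries below the young ones. Ehd3 had a log2 fold change of -0.86 (adjusted p = 0.120 from edgeR). Of the 3 dynamins, the GTPases that sever membrane necks, Dnm1 and Dnm3 were higher in old at an unadjusted p under 0.05. edgeR called neither and DESeq2 called both, with adjusted p of 0.0206 and 0.00132 (DESeq2 called 2.25% of all genes as higher). Dnm1 went from 29.1 ± 12.8 to 64.1 ± 10.2 CPM (SD, n = 3 each), and both had a log2 fold change of 1.14, with adjusted p of 0.145 for Dnm1 and 0.0920 for Dnm3 from edgeR. The remaining dynamin, Dnm2, which is found in most tissues, had a log2 fold change of 0.10 (unadjusted p = 0.285 from edgeR).

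Of 6 raft scaffold genes, Flot1 was higher at an unadjusted p under 0.05, with 69.2, 59.4 and 62.0 CPM in young and 83.3, 90.9 and 94.9 CPM in old libraries (log2 fold change 0.50, adjusted p = 0.0762 from edgeR). Flotillin-1 builds membrane domains that are distinct from caveolae. Of 8 kinases and actin links, 5 were lower and 1 was higher at an unadjusted p under 0.05. The higher gene was Fyn, a Src family kinase, at 38.2, 38.8 and 41.1 CPM in young and 69.0, 89.0 and 87.0 CPM in old libraries (log2 fold change 1.05, SE 0.12, adjusted p = 0.0531 from edgeR and 4.55e-10 from DESeq2). Its relatives Lyn and Yes1 were among the 5 lower genes, with log2 fold changes of -0.81 and -0.80 (adjusted p = 0.130 and 0.123 from edgeR). Flna, the filamin that ties caveolin-1 to actin, had 6560 ± 854 CPM in young and 3787 ± 829 CPM in old (SD, n = 3 each, log2 fold change -0.79, adjusted p = 0.134 from edgeR).

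Membrane repair genes were mixed, with 2 of 7 lower and 1 higher at an unadjusted p under 0.05. Dysf, the repair protein dysferlin, had a log2 fold change of -0.67 and the annexin Anxa6 of -0.49 (adjusted p = 0.172 and 0.208 from edgeR). Bin1, which shapes membrane tubules, had 38.2 ± 3.42 CPM in young and 62.2 ± 7.41 CPM in old (SD, n = 3 each, log2 fold change 0.70, adjusted p = 0.0638 from edgeR).

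Of 21 receptors and channels reported at caveolae, 15 were in the table, and 2 were lower and 2 higher at an unadjusted p under 0.05. Agtr1a, the angiotensin II receptor, had 4.30, 3.44 and 1.67 CPM in young and 11.0, 43.3 and 26.5 CPM in old libraries. Its log2 fold change of 3.10 (SE 0.58, adjusted p = 0.0697 from edgeR and 6.52e-07 from DESeq2) was the largest of the 6 lists. The insulin receptor Insr had a log2 fold change of 0.36 (adjusted p = 0.133 from edgeR). The sodium-calcium exchanger Slc8a1 was at 109 ± 6.72 CPM in young and 53.7 ± 21.3 CPM in old (SD, n = 3 each, log2 fold change -1.03, adjusted p = 0.141 from edgeR and 0.0202 from DESeq2). The calcium channel Cacna1c had a log2 fold change of -0.53 (adjusted p = 0.145 from edgeR).

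The clathrin coat, the other main coat of endocytic pits, was taken for comparison. Of its 16 genes, 3 were lower and 4 higher at an unadjusted p under 0.05 (11.5% and 11.2% of all genes). The median log2 fold change was 0.08. The light chain Cltb and the assembly protein Picalm had log2 fold changes of -0.77 and -0.49 (adjusted p = 0.0638 and 0.0980 from edgeR, 8.91e-05 and 0.000357 from DESeq2). Dab2 and the adaptor subunit Ap2a2 had log2 fold changes of 1.00 and 0.54 (adjusted p = 0.0636 and 0.181 from edgeR, 3.37e-05 and 0.0953 from DESeq2). Whether caveolar and clathrin genes differed in their response to age was not tested.

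**Figure D4:**
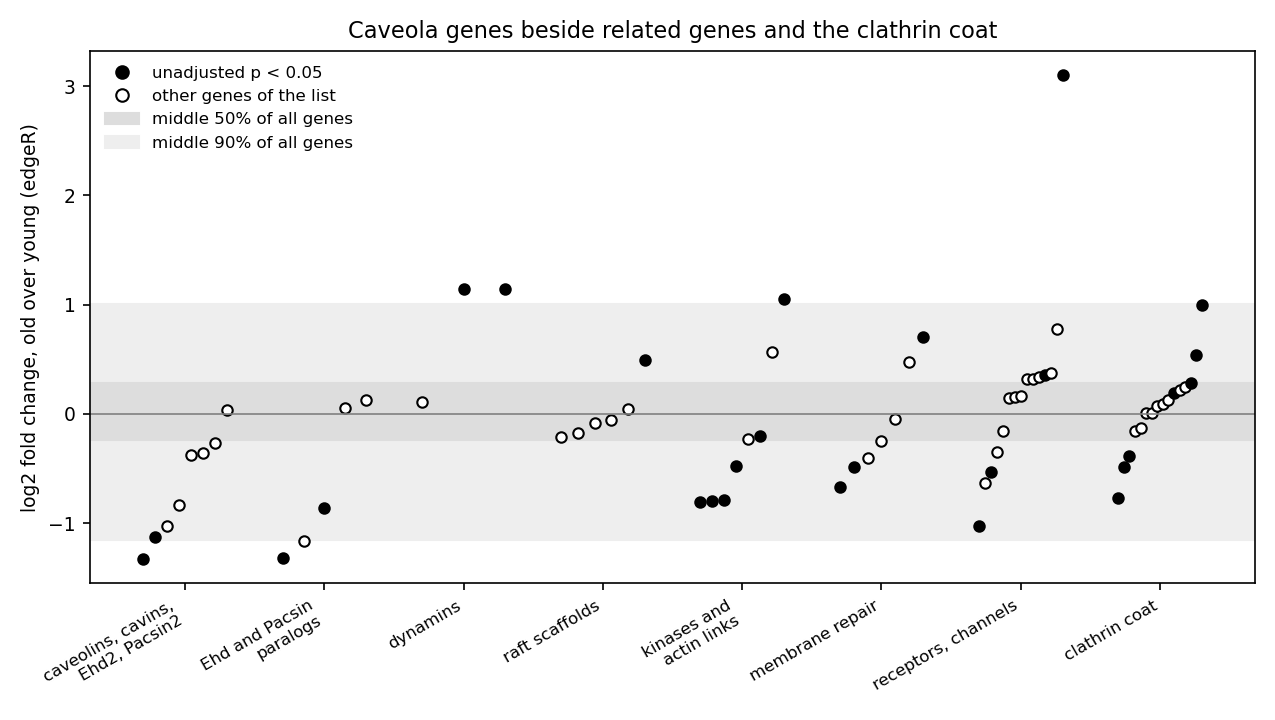
Log2 fold change of old over young for the caveola genes, 6 lists of related genes and the clathrin coat, 1 point per gene. Filled points had an unadjusted p under 0.05 from edgeR. Gray bands hold the middle 50% and 90% of all 14475 genes. Of the caveola genes, 7 of 8 lie below 0, and Agtr1a is the highest point.

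Markers of the other cell types rich in caveolae, endothelial and fat cells, and of macrophages were also summed. Of 16 endothelial markers, 8 were in the table, with a summed level of 43.6 to 48.1 CPM in young and 33.5 to 45.3 CPM in old, and Cdh5 and Tie1 had no row in it. Egfl7 and Tek made up most of this sum. By log2 fold change, 5 of the 8 markers were lower in old and 3 higher, namely Tek (0.77), Vwf (0.65) and Pecam1 (0.28). Flt1 and Erg, 2 of the 8, were lower in each old than in each young library, as were Cav1 and 14.7% of all genes. Flt1, a receptor for vascular endothelial growth factor, had 2.64, 7.56 and 10.5 CPM in young and 0.804, 0.154 and 0.448 CPM in old libraries (log2 fold change -3.87, adjusted p = 0.0732 from edgeR). The log2 fold change of Erg, a transcription factor of endothelial cells, was -2.03 (adjusted p = 0.159 from edgeR), and DESeq2 called both markers. Flt1 and Erg were named after their values were seen. Of 10 fat cell markers, 5 were in the table, at 26.5 to 58.4 CPM in young and 47.1 to 91.4 CPM in old, and Adipoq and Plin1 had no row in it. Of 10 macrophage markers, 2 were in the table, at no more than 2.91 CPM in any library. Their part in the level of Cav1, which endothelial and fat cells also express, was not tested.

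Genes with the pattern closest to a caveola gene were ranked over 6 libraries by the root mean square difference of log2 CPM, each centered on its mean, among 10726 genes with at least 1 CPM in each library. The closest to Cav1 were Hat1, Xrcc2 and Hells, with differences of 0.10 to 0.11. Hat1 had 39.3, 34.4 and 45.2 CPM in young and 30.9, 15.9 and 13.9 CPM in old libraries, in the same order of libraries as Cav1. The closest to Cav2, which had the largest log2 fold change of the group, were Hbegf, Arhgap19 and Sass6, with differences of 0.14 to 0.20. The closest to Cavin1 were Fmnl3, Afap1 and Plaur, with differences of 0.05 to 0.06. These ranks describe 6 libraries, and nothing on function was read from them.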

How the data were processed

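The authors deposited raw gene counts of 6 libraries of cultured VSM cells, from stranded poly(A) libraries. By the authors' account, reads were trimmed with Cutadapt 3.5, aligned with STAR 2.7.10b to Rnor 6.0 and counted per gene with featureCounts (Subread 2.0.8). The authors name a RefSeq annotation for counting, whereas the rows of the counts carry Ensembl gene IDs. The reason for this difference is not known. How strand, mates and multi-mapping reads were handled was not given in the sources used here. In each library, the total count exceeded the highest number of reads per sample that the authors report, as when both mates are counted. Genes under 10 counts in more than 3 libraries have no row. Groups came from the sample titles.

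Old was compared with young in R 4.3.3 with edgeR 4.0.16 (TMM, quasi-likelihood F test, Benjamini-Hochberg adjustment over 14475 genes), with standard errors taken from the F statistic. DESeq2 1.42.0 and limma-voom (limma 3.58.1) were alternatives. The steps were also run on simulated data with planted changes. That run required the right direction for most planted changes from each tool, but a minimum recovery from DESeq2 only. Ratios used counts plus 0.5. The text names all caveola genes, up to 4 genes per related list with an unadjusted p under 0.05, and the 3 genes closest in pattern to Cav1, Cavin1 and the caveola gene with the largest change. Genes, lists and tests were chosen with earlier results of these data known.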

Additional observations from a re-analysis of the deposited data

How the results depend on the processing

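The other filters and normalizations, halved counts and the replicate block called 0.00691% to 0.531% of the genes tested, and limma-voom called 0. Where so few genes were called, a count of 0 says little about the caveola genes in particular. The number of caveola genes called was 0 under these settings and the other thresholds, and 2 with DESeq2 (5.56% of all genes). With each library left out in turn it was 0 to 1 with edgeR (1 without old replicate 1, where 5.06% of all genes were called) and 0 to 2 with DESeq2 (3.81% to 9.51% of all genes), an alternative chosen after seeing the data (2 without young replicate 1 or old replicate 1, 1 without young replicate 2). The number at an unadjusted p under 0.05 was 1 to 4, with 1 without young replicate 3 (16.3% of all genes) or old replicate 2 (16.1%) and 4 without old replicate 1 (32.4%), namely Cav1, Cav2, Cavin3 and Ehd2, so these counts moved with those of all genes. The median log2 fold change was -0.84 to -0.22, and the clathrin genes at an unadjusted p under 0.05 were 3 to 7 (3 without old replicate 3, 4 without young replicate 1 or 2). The cause of these changes was not tested. Pacsin2 changed sign without young replicate 2 (-0.016) and without old replicate 1 (-0.095), with a range of -0.095 to 0.165. Over its alternatives, the adjusted p of Cav1 was 0.00908 to 0.287 and that of Cav2 0.0184 to 0.314. The filter of at least 1 CPM in at least 3 libraries removed Cavin4.

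Deviations from the group means of libraries with the same replicate number correlated at 0.061, 0.326 and 0.32 over 12257 genes, and 1 of 3 pairs fitted best with its own number, so the number was not taken as a pairing. With it as a block, 0 caveola genes were called (0.00691% of all genes) and 3 had an unadjusted p under 0.05 (22.5% of all genes). The log2 fold changes of Cav1 and Cav2 were then -1.17 and -1.36. With 3 rats per group, the 95% intervals of Cavin2 and Cavin4 span more than 2 on the log2 scale, so their changes are poorly bounded.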

Other observations

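The protein-coding genes that flank the Cav2 and Cav1 pair in the RefSeq annotation of GRCr8 were looked up by position after the values of the pair had been seen. Tes, which encodes the focal adhesion protein testin and precedes Cav2, had 164, 155 and 153 CPM in young and 147, 100.1 and 117 CPM in old libraries. Its log2 fold change was -0.37 (SE 0.15, unadjusted p = 0.0436, adjusted p = 0.211 from edgeR). Met, which encodes the hepatocyte growth factor receptor and follows Cav1, had 7.20, 8.74 and 6.57 CPM in young and 4.46, 5.44 and 6.42 CPM in old libraries. Its log2 fold change was -0.46 (SE 0.20, unadjusted p = 0.0574, adjusted p = 0.231 from edgeR). In both cases each old library was below each young library, as for Cav1 and Cav2 and for 14.7% of all genes, but the differences were smaller than those of the caveolins.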
